A study of Mus musculus with 6 samples.

Results

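The 5 genes of the IL-36 system were read in ear skin of mice from a FITC contact hypersensitivity experiment. They are the agonist cytokine genes Il36a, Il36b and Il36g, the receptor antagonist gene Il36rn and the receptor gene Il1rl2. They were taken by name from the 19938 genes measured, with the older symbols Il1f6, Il1f8, Il1f9 and Il1f5 accepted for the 4 ligand genes. All 5 were found, each on 1 probe set.

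The samples were ears of 3 CLEC4C-DTR/+ mice and 3 littermate control mice, with 1 mouse and 1 FITC-treated ear per array. In the CLEC4C-DTR line the promoter of CLEC4C, a human gene of plasmacytoid dendritic cells, drives the diphtheria toxin receptor, so that toxin kills cells that carry it. Mice of both groups were 10 to 12 weeks old and were injected with diphtheria toxin (200 ng) on days -1, 1, 3 and 5. Both groups were sensitised on the shaved abdomen with 0.5% FITC, a reactive skin sensitiser, in acetone and dibutyl phthalate on days 0 and 2, and challenged with it on the right ear on day 6. Toxin without the transgene is therefore covered by the controls, while the transgene without toxin and unchallenged ears are not analysed here, so the effects of genotype and of cell loss cannot be told apart. Mice are numbered within each group as in the labels. How long after challenge the ears were taken is not stated in the labels.

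IL-36 cytokines belong to the IL-1 family and are made largely by epithelial cells, in skin above all by keratinocytes. The 3 agonists bind IL-36R, the product of Il1rl2, which then recruits the shared accessory chain encoded by Il1rap and signals through MyD88 and IRAK kinases to NF-κB. The antagonist encoded by Il36rn binds the same receptor without recruiting the accessory chain. The agonists gain activity when proteases trim their amino terminus. In humans, loss of the antagonist causes generalised pustular psoriasis, a neutrophil-rich skin disease.

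Values are log2 levels after RMA, a normalisation that sets all arrays to nearly 1 distribution. Levels of different probe sets are not comparable with each other, so each gene was compared only between mice. A gene was called at an adjusted p under 0.05 in a limma fit over all genes with Benjamini-Hochberg adjustment. By that rule 9.32% of all genes were called, 5.01% as higher and 4.31% as lower in CLEC4C-DTR skin, and 27.3% had an unadjusted p under 0.05. The keratinocyte genes Krt5 and Krt14 lay at log2 levels of 11.94 or above on every array, as in tissue rich in epidermis. Since RMA levels come without a background measure, absence of a gene cannot be shown.

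Il36g was the 1 member of the 5 that passed the test, and it was 3.62-fold higher in CLEC4C-DTR skin, where 5.01% of all genes were called higher. Il36a came close to the threshold at 1.98-fold. Il36b and Il36rn had higher means in CLEC4C-DTR skin but overlapped between the groups, and Il1rl2 had nearly the same mean in both.

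Il36g, the gene of the agonist IL-36γ, had log2 levels of 8.69, 10.33 and 10.05 in CLEC4C-DTR mice 1, 2 and 3, against 7.99, 7.78 and 7.73 in control mice 1, 2 and 3. All CLEC4C-DTR mice lay above all controls, with a gap of 0.69 between the groups, and CLEC4C-DTR mouse 1 lay closest to the controls. The mean was 9.69 ± 0.88 in CLEC4C-DTR skin and 7.83 ± 0.14 in controls (SD, n = 3 each). The log2 difference was 1.86 (SE 0.37, adjusted p = 0.0261 by limma), a fold of 3.62 with a 95% confidence interval of 2.00 to 6.54. It ranked 785 by p among all genes and also passed a 2-fold threshold, as 1.67% of all genes did as higher in CLEC4C-DTR skin. The call depended on single arrays. Without CLEC4C-DTR mouse 1 the difference was 2.36 (adjusted p = 0.000204 by limma). Il36g missed the threshold without CLEC4C-DTR mouse 2 (adjusted p = 0.0658 by limma) and without CLEC4C-DTR mouse 3 (0.0890). It also missed it without control mouse 1 (adjusted p = 0.0729 by limma), control mouse 2 (0.0591) or control mouse 3 (0.107). In the fits without a control mouse the difference stayed at 1.80 to 1.94 (unadjusted p = 0.00336 to 0.00485 by limma). Calls over all genes fell from 1858 with all arrays to 167, 1219 and 67 without control mouse 1, 2 and 3. They fell to 466 and 108 without CLEC4C-DTR mouse 2 and 3.

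Il36a, the gene of IL-36α, had log2 levels of 6.15, 6.91 and 7.39 in CLEC4C-DTR mice 1, 2 and 3, against 5.83, 5.85 and 5.81 in control mice 1, 2 and 3. The controls were nearly identical, and the lowest CLEC4C-DTR mouse lay 0.31 above the highest of them. The means were 6.82 ± 0.62 in CLEC4C-DTR skin and 5.83 ± 0.02 in controls (SD, n = 3 each). The log2 difference was 0.99 (SE 0.26, 95% confidence interval 0.38 to 1.60) and did not pass (adjusted p = 0.0548 by limma). It passed without CLEC4C-DTR mouse 1, at a difference of 1.32 (adjusted p = 0.00175 by limma), and missed the threshold when any other array was left out (highest adjusted p = 0.169). Groups that do not overlap were found for 2 of the 5 members, Il36g and Il36a, both higher in CLEC4C-DTR skin, where 14.0% of all genes were of that kind and 33.0% did not overlap in either direction.

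Il36b, the gene of IL-36β, was at 5.74, 5.69 and 6.84 in CLEC4C-DTR mice 1, 2 and 3, against 5.73, 4.73 and 5.29 in control mice 1, 2 and 3. CLEC4C-DTR mouse 3 stood above the rest, and control mouse 1 lay level with the other CLEC4C-DTR mice. The means were 6.09 ± 0.65 in CLEC4C-DTR skin and 5.25 ± 0.50 in controls (SD, n = 3 each), a log2 difference of 0.83 (SE 0.34, 95% confidence interval 0.04 to 1.62, adjusted p = 0.163 by limma). Without CLEC4C-DTR mouse 3 the difference was 0.46 (adjusted p = 0.357 by limma).

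Il36rn, the antagonist gene, was at 6.60, 6.25 and 7.25 in CLEC4C-DTR mice 1, 2 and 3, against 6.42, 6.14 and 6.49 in control mice 1, 2 and 3. Here too CLEC4C-DTR mouse 3 stood above the rest, and CLEC4C-DTR mouse 2, highest of all mice for Il36g, lay among the controls. The means were 6.70 ± 0.51 in CLEC4C-DTR skin and 6.35 ± 0.19 in controls (SD, n = 3 each), a log2 difference of 0.35 (SE 0.23, 95% confidence interval -0.19 to 0.89, adjusted p = 0.378 by limma). That interval reaches a fold of 1.85, so a rise of the size seen for Il36g lay outside it. Without CLEC4C-DTR mouse 3 the difference was 0.07 (adjusted p = 0.820 by limma).

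Il1rl2, the receptor gene, was at 7.65, 7.79 and 8.04 in CLEC4C-DTR mice 1, 2 and 3, against 7.93, 7.78 and 7.95 in control mice 1, 2 and 3. The control range, 7.78 to 7.95, lay wholly inside the wider CLEC4C-DTR range of 7.65 to 8.04. The means were 7.83 ± 0.20 in CLEC4C-DTR skin and 7.89 ± 0.09 in controls (SD, n = 3 each), a log2 difference of -0.06 (SE 0.11, adjusted p = 0.785 by limma). The 95% confidence interval of the fold ran from 0.80 to 1.15, the narrowest of the 5 members.

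**Figure D1:**
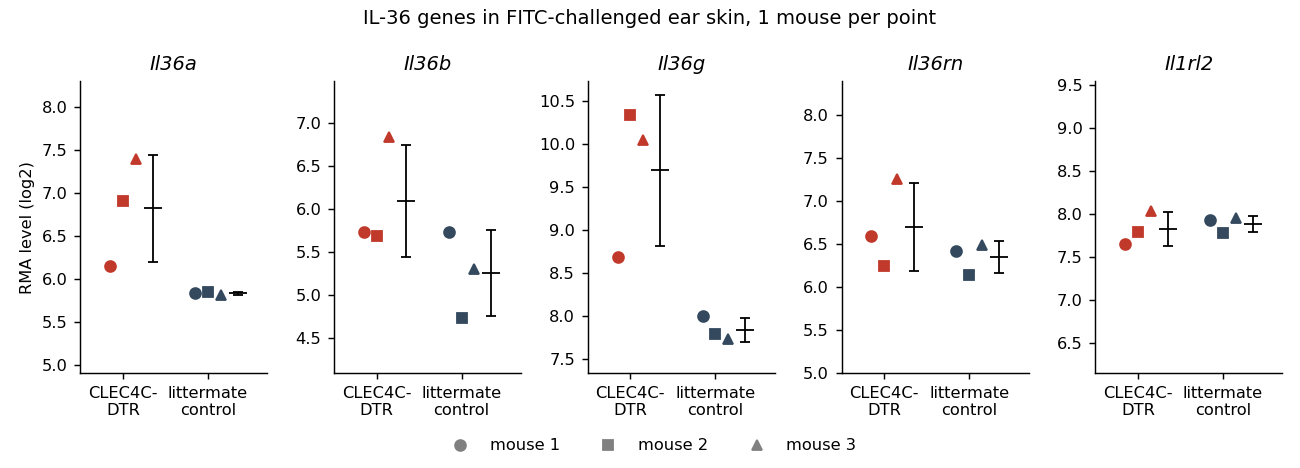
Log2 RMA level of each IL-36 gene (vertical axis, the same span of log2 units in each panel but different starting points) in 3 CLEC4C-DTR and 3 littermate control mice, with mean and SD as bars beside the points. Il36g and Il36a lie higher in every CLEC4C-DTR mouse than in any control, while Il36b, Il36rn and Il1rl2 overlap between the groups.

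The members differed in which mouse was highest. CLEC4C-DTR mouse 3 held the highest value of all 6 mice for Il36a, Il36b, Il36rn and Il1rl2, and CLEC4C-DTR mouse 2 held it for Il36g. For 5 of 5 members the SD was larger among CLEC4C-DTR mice than among controls, which was the case for 57.7% of all genes. The mean log2 level of 8 neutrophil markers was 9.29, 10.74 and 10.56 in CLEC4C-DTR mice 1, 2 and 3. In control mice 1, 2 and 3 it was 8.03, 8.05 and 7.65. Limma called 8 of the 8 neutrophil markers higher, against 5.01% of all genes. These markers, like Il36g, were highest in CLEC4C-DTR mouse 2 and lowest among CLEC4C-DTR mice in mouse 1, and their part in the result was not tested. The mean of 8 keratinocyte markers was 10.73, 10.32 and 10.90 in CLEC4C-DTR mice 1, 2 and 3, against 10.79, 10.67 and 10.78 in control mice 1, 2 and 3. None of the 8 was called (1 higher and 2 lower at an unadjusted p under 0.05 by limma). The 4 differentiation markers of that list, named after their values were seen, did not share an order of mice. Krt1, a keratin of suprabasal epidermis, was at 11.88 in CLEC4C-DTR mouse 3, against at most 10.67 in every other mouse, and Ivl, encoding involucrin, was also highest in that mouse, at 7.97. Krt10, the partner keratin of Krt1, was at 12.50 in CLEC4C-DTR mouse 3, below CLEC4C-DTR mouse 1 (12.56) and all controls (12.71 to 12.85). Lor, encoding loricrin, was at 9.45 there, below CLEC4C-DTR mouse 1 (9.93) and control mice 1 and 3 (9.94 and 9.99). The part of epidermal makeup in the values of Il36b and Il36rn was not tested. In whole skin, more cells of a type and more RNA per cell cannot be told apart.

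Some markers of other cells the skin could hold were called as well, and their part in the IL-36 values was likewise not tested. Over all genes 5.01% were called higher and 4.31% lower. Limma called 4 of 7 monocyte and macrophage markers higher and 0 lower (5 higher and 1 lower at an unadjusted p under 0.05), with a mean log2 level of 9.48 to 9.88 in CLEC4C-DTR mice and 8.62 to 8.92 in controls. Cd14, a co-receptor for bacterial lipopolysaccharide, was at 8.94, 10.98 and 10.94 in CLEC4C-DTR mice 1, 2 and 3, against 7.34, 7.41 and 6.83 in control mice 1, 2 and 3 (adjusted p = 0.0169 by limma). Cd14 thus had the same order of CLEC4C-DTR mice as Il36g, but the list's mean did not. That mean was 9.48, 9.72 and 9.88 in CLEC4C-DTR mice 1, 2 and 3. Among CLEC4C-DTR mice Adgre1, Csf1r, Cd68, Mrc1 and Ccr2 were highest in mouse 3, and Lyz2 was highest in mouse 2. Of 8 dendritic and Langerhans cell markers 3 were called higher, and their mean was 6.15 to 6.29 in CLEC4C-DTR mice and 5.84 to 5.91 in controls. Of 6 T cell markers 1 was called higher (5 higher and 0 lower at an unadjusted p under 0.05 by limma). Of 5 endothelial markers 1 was called higher (1 higher and 1 lower at that unadjusted level). Of 5 fibroblast markers 1 was called higher, but 1 was higher and 3 were lower at that unadjusted level. The median log2 difference of the fibroblast list was -0.26. Of 5 skeletal muscle markers 2 were called lower, Tnnt3 by a log2 difference of -0.67 and Mylpf by -1.06, and the list's mean was 9.13 to 9.60 in CLEC4C-DTR mice and 9.79 to 10.43 in controls. Of 7 markers of plasmacytoid dendritic cells, the cells the transgene targets, limma called 0 (1 higher and 1 lower at an unadjusted p under 0.05). Their mean was 7.78 to 7.88 in CLEC4C-DTR mice and 7.83 to 7.99 in controls, and Siglech, the most specific of them, was at 5.42 to 5.52 in CLEC4C-DTR mice and 5.41 to 5.84 in controls. Siglech, Ccr9 and Spib were dim, at percentiles 31.2, 31.5 and 22.2 of the mean levels of all genes. Ly6d, Cox6a2, Bst2 and Tcf4 lay at percentiles 99.3, 95.2, 92.5 and 91.1. Whether plasmacytoid dendritic cells were lost from these ears therefore cannot be read from this list. Marker genes in this paragraph were named after their values were seen.

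**Figure D2:**
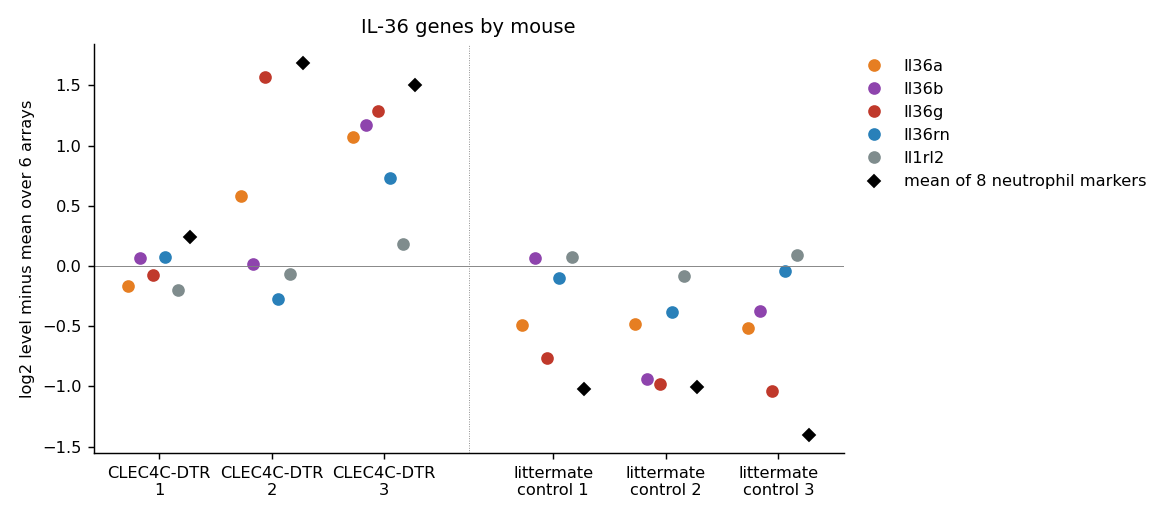
Log2 level of each IL-36 gene, and the mean of 8 neutrophil markers, minus its own mean over the 6 arrays (vertical axis), for each mouse (horizontal axis). Il36g stands highest in CLEC4C-DTR mouse 2 beside the neutrophil markers, and Il36b, Il36a and Il36rn stand highest in CLEC4C-DTR mouse 3.

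The agonists were also set against the antagonist within each array. The log2 level of Il36g minus that of Il36rn was 2.09, 4.08 and 2.79 in CLEC4C-DTR mice 1, 2 and 3, against 1.57, 1.64 and 1.24 in control mice 1, 2 and 3. The groups did not overlap, and the log2 difference between them was 1.51, which is an unequal change of the probe sets and not a ratio of molecules. The exact two-sided permutation test gave p = 0.1 (0.267 adjusted over 4 such differences, n = 3 each), and 0.1 is the smallest p that 3 mice against 3 can give. For Il36a minus Il36rn the log2 difference between groups was 0.64 (exact permutation p = 0.2, 0.267 adjusted) and for Il36b minus Il36rn it was 0.48 (exact permutation p = 0.2, 0.267 adjusted), with overlap in both. For Il1rl2 minus Il36rn it was -0.41 (exact permutation p = 0.3, 0.3 adjusted). The exact permutation test therefore could not pass a threshold of 0.05 with this number of mice, and no other test of these differences was run.

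The 4 ligand genes lie side by side on mouse chromosome 2, in the order Il36b, Il36g, Il36a, Il36rn, followed by Il1f10, the gene of the IL-1 family member IL-38, and Il1rn, the gene of the IL-1 receptor antagonist. Along that order the log2 differences of CLEC4C-DTR minus control skin were 0.83, 1.86, 0.99, 0.35, -0.38 and 1.46. Il36rn and Il1f10 thus had the smallest values between neighbours that lay higher on both sides. Il1f10 was at 5.30, 4.71 and 4.83 in CLEC4C-DTR mice 1, 2 and 3, against 5.30, 5.26 and 5.43 in control mice 1, 2 and 3, and did not pass (adjusted p = 0.145 by limma). Il1rl2 lies on chromosome 1 beside other IL-1 receptor genes.

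The 250 bases before the start of 3 neighbouring ligand genes are shown because Il36g rose while Il36b and Il36rn were not called. They are from RefSeq, build GRCm38.p6, plus strand, read 5′ to 3′, at chr2:24186226-24186475 for Il36g, chr2:24152922-24153171 for Il36b and chr2:24276704-24276953 for the first of 2 listed starts of Il36rn. Capitals mark matches on either strand to TGANTCA, an AP-1 motif, TTGCNNAA, a C/EBP motif, or GGGNNTTTC, the first letters of an NF-κB motif, and no matches overlap.
Il36g: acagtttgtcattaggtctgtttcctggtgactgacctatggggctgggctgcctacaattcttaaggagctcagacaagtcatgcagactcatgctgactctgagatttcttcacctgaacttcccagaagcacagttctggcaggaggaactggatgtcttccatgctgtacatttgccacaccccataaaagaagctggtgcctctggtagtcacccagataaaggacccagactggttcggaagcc
Il36b: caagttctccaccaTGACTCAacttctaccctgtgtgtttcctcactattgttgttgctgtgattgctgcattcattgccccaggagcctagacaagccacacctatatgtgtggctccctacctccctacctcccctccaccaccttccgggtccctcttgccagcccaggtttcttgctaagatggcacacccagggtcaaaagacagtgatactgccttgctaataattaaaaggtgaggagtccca
Il36rn: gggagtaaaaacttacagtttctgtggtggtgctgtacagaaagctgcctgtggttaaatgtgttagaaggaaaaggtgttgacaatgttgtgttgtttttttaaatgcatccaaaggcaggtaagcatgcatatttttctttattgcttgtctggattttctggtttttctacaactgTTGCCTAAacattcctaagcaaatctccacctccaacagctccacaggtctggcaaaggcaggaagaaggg

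Il36b held 1 AP-1 match, TGACTCA, starting 236 bases before the gene start, and 6.75% of 32851 promoter windows of that length held the motif. Il36rn held 1 C/EBP match, TTGCCTAA, starting 71 bases before the start, a motif found in 9.56% of windows. The Il1rl2 window held 1 C/EBP match, starting 124 bases before the start. The NF-κB motif sequence GGGNNTTTC was found in 3.72% of all windows and in none of the 5 windows listed for 4 members. Other forms of NF-κB site were not searched, so their absence is not shown. The Il36g window held none of the 3 motifs. The matches describe letters and not binding, and Il36a is not among the windows used here.

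Beyond the members, the other receptor chain rose. Il1rap, the accessory chain that IL-36R shares with the IL-1 and IL-33 receptors, was at 7.72, 8.97 and 8.97 in CLEC4C-DTR mice 1, 2 and 3, against 7.17, 7.03 and 6.99 in control mice 1, 2 and 3. The groups did not overlap, and the log2 difference was 1.49 (SE 0.31, adjusted p = 0.0279 by limma). The 95% confidence interval was 0.78 to 2.19 on the log2 scale, against -0.32 to 0.20 for Il1rl2, and the difference between the receptor chains was not tested. As for Il36g, the call held without CLEC4C-DTR mouse 1 (adjusted p = 0.000147 by limma) and not without any other array (0.0632 to 0.112).

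Of 13 measured genes of the accessory chain and signalling list, limma called 2 higher, Il1rap and Myd88, and 0 lower. At an unadjusted p under 0.05, 7 were higher and 0 lower. Over all genes 5.01% were called higher, and 2435 of 19938 were higher at that unadjusted level. The list's median log2 difference was 0.25 against -0.04 over all genes. Myd88, the adaptor of IL-1 and Toll-like receptors, was at 9.61 to 9.74 in CLEC4C-DTR mice and 8.58 to 9.33 in controls, a log2 difference of 0.79 (SE 0.18, adjusted p = 0.0365 by limma). The kinase gene Irak2 differed by 0.81 (adjusted p = 0.0524 by limma) and Irak3, whose product restrains the pathway, by 0.56 (0.0526). Nfkbiz, whose product IκBζ drives many IL-36 target genes in keratinocytes, differed by 0.68 (adjusted p = 0.0604 by limma). All 3 were called when CLEC4C-DTR mouse 1 was left out. With CLEC4C-DTR mouse 2 or 3, or with control mouse 1 or 3, left out limma called 0 of the 13 (5 to 7 at an unadjusted p under 0.05), and without control mouse 2 it called Myd88 alone. Over all 19938 genes those fits called 466, 108, 167, 67 and 1219 in either direction, in that order. Sigirr, a negative regulator of IL-1 family receptors, differed by -0.13 (adjusted p = 0.331 by limma). Nfkbiz and Sigirr were named after their values were seen.

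Of the 4 protease genes linked to IL-36 trimming, limma called 1 higher, Ctss, and 0 lower, while 5.01% of all genes were called higher. The 3 neutrophil granule protease genes did not pass. They were dim, with Ctsg, Elane and Prtn3 at percentiles 14.4, 23.8 and 26.8 of the mean levels of all genes, and RMA compresses differences of dim genes. Ctss, the cathepsin that cleaves human IL-36γ, was at 10.63 to 10.93 in CLEC4C-DTR mice and 9.84 to 10.23 in controls, a log2 difference of 0.77 (SE 0.13, adjusted p = 0.0171 by limma). Its call was lost when CLEC4C-DTR mouse 3, control mouse 1 or control mouse 3 was left out (highest adjusted p = 0.0807). Ctsg, encoding cathepsin G, differed by -0.33 (adjusted p = 0.288 by limma), Prtn3, encoding proteinase 3, by -0.18 (0.483) and Elane, encoding neutrophil elastase, by -0.0036 (0.985). As background, granule proteases are transcribed mainly in bone marrow precursors of neutrophils.

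Of 24 genes known to respond to IL-36 in skin or keratinocytes, 16 were called higher and 0 lower, while 5.01% of all genes were called higher. At an unadjusted p under 0.05 by limma 19 were higher and 0 lower, while 2435 of 19938 genes were higher. The median log2 difference was 1.46, against -0.04 over all genes. The list was chosen with earlier results of these data known, and its Il1b is also counted among the other IL-1 family ligands. As background, IL-1, IL-17 and TNF induce many of the 24 genes as well. S100a8 and S100a9, which are also 2 of the 8 neutrophil markers, are abundant in neutrophils. The 4 with the smallest p were S100a9 and S100a8, the calprotectin genes, and the neutrophil chemokine genes Cxcl5 and Cxcl3. Cxcl3 was at 9.17, 11.04 and 10.79 in CLEC4C-DTR mice 1, 2 and 3, against 6.27, 6.34 and 6.10 in control mice 1, 2 and 3, a log2 difference of 4.10 (SE 0.42, adjusted p = 0.00937 by limma). Cxcl5 differed by 3.86 (adjusted p = 0.00919 by limma), S100a8 by 1.61 (0.00937) and S100a9 by 1.49 (0.00802). Krt6a, a keratin of activated epidermis, differed by 1.81 (adjusted p = 0.00937 by limma), and Csf2, encoding GM-CSF, by 0.82 (0.0174). The 8 that did not pass held Cxcl1, Il6, Defb4 and Cxcl10, with differences between 0.75 and 1.69, and Il23a, S100a7a, Il17c and Vnn1, with differences between -0.09 and 0.18. Leaving out CLEC4C-DTR mouse 3 gave 7 calls, control mouse 1 gave 9 and control mouse 3 gave 8. Over all 19938 genes those fits called 108, 167 and 67 in either direction, in that order. Cxcl3, Cxcl5, Defb14, Krt6a, Lcn2, S100a8 and S100a9 were called in each of the 6 fits that left out 1 array. Genes named in this paragraph beyond the 4 with the smallest p were named after their values were seen.

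**Figure D3:**
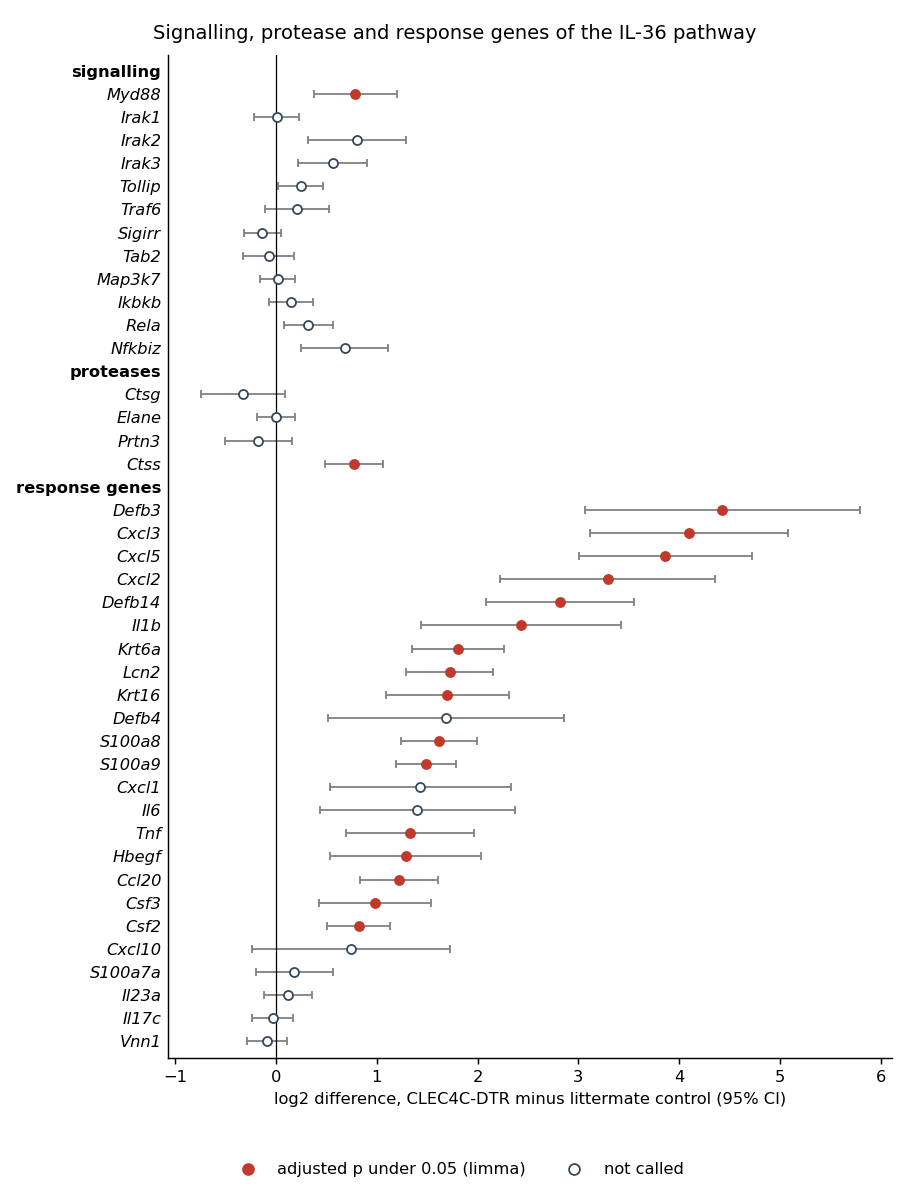
Log2 difference of CLEC4C-DTR minus littermate control (horizontal axis) with 95% confidence interval for signalling, protease and response genes of the IL-36 pathway, filled where limma called the gene. Of the 13 accessory chain and signalling genes Il1rap is left out here, and Myd88 alone is called among the rest. Calls number 1 of 4 among proteases (Ctss) and 16 of 24 among response genes. Over all genes 5.01% were called higher.

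Among the other IL-1 family ligands, 4 of 6 were called higher and 0 lower (5 higher and 1 lower at an unadjusted p under 0.05 by limma). Over all genes 5.01% were called higher, and 2435 of 19938 were higher at that unadjusted level. Il1a, encoding the alarmin IL-1α, was at 8.26, 10.27 and 9.52 in CLEC4C-DTR mice 1, 2 and 3, against 5.53, 6.73 and 6.54 in control mice 1, 2 and 3. Its log2 difference was 3.08 (SE 0.50, adjusted p = 0.0169 by limma), and those of Il1b and Il33 were 2.43 (0.0192) and 1.36 (0.0485). Il1rn, the antagonist of the IL-1 receptor, differed by 1.46 (SE 0.36, adjusted p = 0.0441 by limma). The IL-1 antagonist gene was thus called and the IL-36 antagonist gene was not, with intervals of 0.64 to 2.28 and -0.19 to 0.89 that overlap. The difference between these antagonists was not tested. The Il1rn call held without CLEC4C-DTR mouse 1 (adjusted p = 0.00103 by limma) and not without any other array (0.0908 to 0.1495). Limma called 0 of this list when CLEC4C-DTR mouse 3, control mouse 1 or control mouse 3 was left out (4 to 5 at an unadjusted p under 0.05), 1 when CLEC4C-DTR mouse 2 was and 2 when control mouse 2 was. Over all 19938 genes those fits called 108, 167, 67, 466 and 1219 in either direction, in that order. Of 5 other receptor genes of the family measured, only Il18rap was called, at a log2 difference of 1.96 (SE 0.34, adjusted p = 0.0191 by limma). Leaving out CLEC4C-DTR mouse 3, control mouse 1 or control mouse 3 ended its call (highest adjusted p = 0.0870). Il1r2, the decoy receptor of IL-1, differed by 1.34 (adjusted p = 0.0741 by limma).

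**Figure D4:**
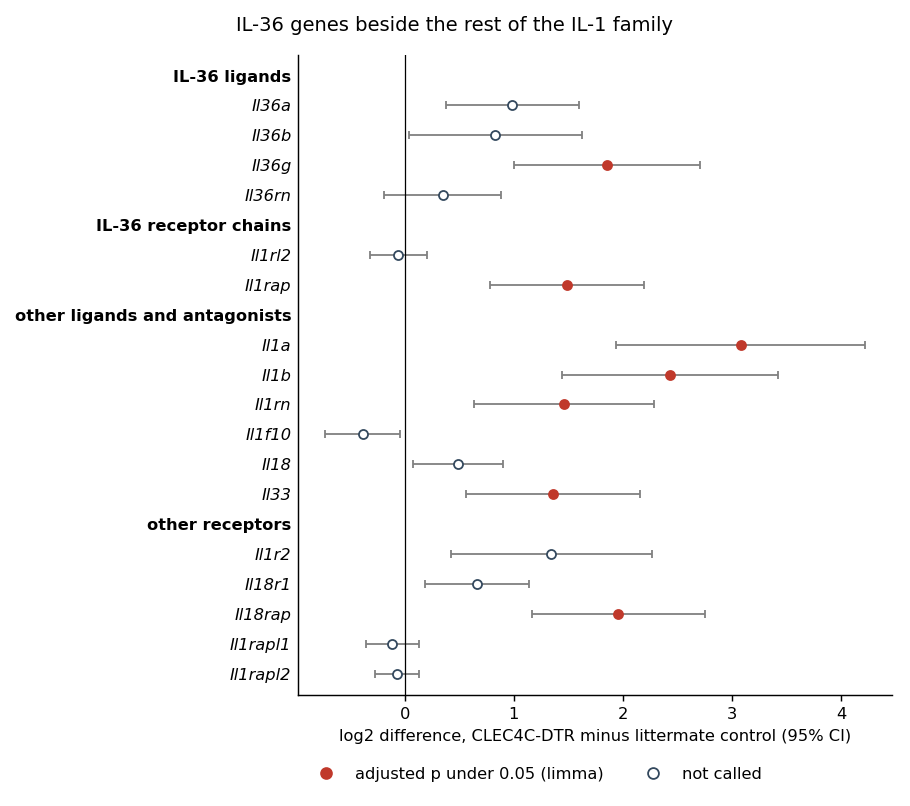
Log2 difference of CLEC4C-DTR minus littermate control (horizontal axis) with 95% confidence interval for the IL-36 genes, the accessory chain and other IL-1 family genes, filled where limma called the gene. Il36g and Il1rap are called, Il36a lies just short, and the interval of Il1rl2 is centred near 0.

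For 4 members whose values spanned at least 1 log2 unit, the 3 genes with the most similar profile were found by the root mean square (RMS) difference between profiles over the 6 arrays, each centred on its own mean. For Il36g these were Mirt1, a non-coding transcript, Entpd1, the ectonucleotidase CD39, and Il18rap, with RMS differences of 0.07, 0.10 and 0.11 log2 units. For Il36a they were Slc34a2, a phosphate transporter gene, Selenon, a selenoprotein gene, and Clec1a, a lectin receptor gene, at 0.09 to 0.10. For Il36rn they were Clec4b1, a lectin gene of myeloid cells, Casp14, a caspase gene of cornifying keratinocytes, and Atp12a, a proton pump gene, at 0.12 to 0.13. For Il36b the nearest lay farther off, at 0.21 to 0.24: the probe set annotated to Mir340, the histone gene H2ac4 and the mitotic kinase gene Pbk. The lists of the 4 members had no gene in common. With 6 arrays that share the group difference, such likeness describes these mice only.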

How the data were processed

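Total RNA from whole ear skin was hybridised to Affymetrix Mouse Gene 1.0 ST arrays, 1 mouse per array. The deposited values are log2 levels that the authors computed by RMA, per the series' design text, and the log2 scale was read from the values. Which software ran RMA is not stated in the labels. Build mm8 appears, without a role, in the submitters' processing notes. RMA compresses differences of dim genes and removes any change shared by most genes. Median log2 levels over all 35556 probe sets were 6.17 to 6.23 per array, and no arrays held identical values. The number of arrays limits the precision.

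Of the probe sets, 21789 have 1 gene symbol in the platform annotation, 1621 several, and 12146 are unnamed here. Symbols were updated through Entrez identifiers (21698 found in RefSeq). The brightest probe set over the 6 arrays stood for a gene, which gave 19938 genes. The groups were compared in limma 3.58.1 (lmFit, eBayes; R 4.3.3, statmod 1.5.0), two-sided, without covariates, tested on simulated data first. Adjusted p-values are from that fit over all genes, intervals are 95% and use its moderated SE, and folds are 2 raised to the log2 difference. Figures used matplotlib 3.10.9.

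The members and lists were chosen with earlier results of these data known. The naming rule took all members, the 4 genes with the smallest p of each list and any other gene counted by role, and the 3 genes most similar to each member that spanned 1 log2 unit. Promoter motifs were chosen after the files were seen. Alternatives were other scalings, probe set rules, a filter on dim genes, variance moderation, array weights, a replicate block, other features tested and each array left out.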

Additional observations from a re-analysis of the deposited data

How the results depend on the processing

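With 3 mice per group, single arrays decided most calls. Over the 6 fits with 1 array left out the log2 difference of Il36g was 1.53 to 2.36, of Il36a 0.70 to 1.32, of Il36b 0.46 to 1.07, of Il36rn 0.07 to 0.58 and of Il1rl2 -0.17 to 0.03. Il1rl2 changed sign once, to 0.0279 without CLEC4C-DTR mouse 1, where it was not called either. Il36g kept its difference of 1.86 but missed the threshold with variances not moderated across genes (adjusted p = 0.180 by limma's ordinary variances) and over all probe sets of the table (adjusted p = 0.0732). Il36a passed after a further quantile normalisation (difference 1.01, adjusted p = 0.0478), with array weights (1.09, adjusted p = 0.0303) and with a replicate block (0.99, adjusted p = 0.0350). Il36b and Il36rn were called in none of their 16 and 17 alternatives, and Il1rl2 in none of 17. Il36a and Il36b lay below the median level of all genes (percentiles 47.0 and 33.4), so the filter on dim genes left them out.

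Calls among the 5 members numbered 2 after quantile normalisation, with array weights and with the block, 0 without moderation and 0 over all probe sets, and 0 to 2 with arrays left out (2 to 4 at an unadjusted p under 0.05). For the accessory chain and signalling list they numbered 1 after quantile normalisation, 4 among genes above the median level, and 5 with array weights and with the block, and 0 to 5 with arrays left out. For the other receptors they numbered 2 with array weights and with the block, and 0 to 3 with arrays left out. For the other ligands they numbered 2 with robust moderation and 0 to 5 with arrays left out, for the proteases 0 to 1, and for the response genes 7 to 17. Over all probe sets the response genes held 7 calls and the proteases, signalling genes, other ligands and other receptors 0. Without moderation none of the lists held a call, nor did any gene (limma, 4387 genes at an unadjusted p under 0.05). Over all genes the count was 1858, 95 over all probe sets of the table, and 67 to 2617 with arrays left out. Of the calls, 998 were higher and 860 lower, against 1064 and 738 after median centring and 940 and 997 after quantile normalisation. The cause of these changes was not tested.

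Same-numbered mice did not deviate together in every pair (correlations of -0.06, 0.22 and 0.10 across genes), so the numbers were not taken as pairs, and the block raised the count over all genes to 2084. Differences of the agonists and Il1rl2 from Il36rn kept their direction in all 9 alternatives: 0.96 to 1.96 for Il36g, 0.37 to 0.92 for Il36a, 0.33 to 0.69 for Il36b and -0.62 to -0.24 for Il1rl2 with arrays left out.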
